A study of Mus musculus with 8 samples.

Results

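The siRNA pool si308, raised against the double homeobox gene mDux, was added to Chaf1a siRNA in mouse embryonic stem cells, and polyA RNA from these cells was compared with RNA from cells that received Chaf1a siRNA with negative control siRNA. Both groups received Chaf1a siRNA, so the comparison follows what the pool changed beside it; protein was not measured. It rests on 4 of the 8 libraries of the series, 2 per group, and on raw counts of all 28431 genes and 1499 repeat names, of which 17977 genes and 1253 repeats passed the filter on low counts. All cells carried a MERVL::EGFP reporter and were grown with serum, leukemia inhibitory factor and 2i. The si308 group received 10 pmol of the pool with 10 pmol of Chaf1a siRNA, and the Chaf1a siRNA group received 10 pmol of negative control siRNA with 10 pmol of Chaf1a siRNA. The other groups of the series served as further references: si309, another mDux pool, from another stretch of the gene, with Chaf1a siRNA (10 pmol of each, although the label of 1 library gives no dose), and 20 pmol of negative control siRNA alone. Every group had been transfected on 2 consecutive days. The labels do not say whether the replicates of a group came from separate cultures, so p-values measure the spread between these libraries, which may be technical.

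CHAF1A is the large subunit of CAF-1, a chaperone that places histones on newly copied DNA. Embryonic stem cells that lack it enter more often a state that resembles the embryo at the cleavage stage, with transcription of Zscan4 genes and of the endogenous retrovirus MERVL. DUX is a transcription factor of the early mouse embryo that binds MERVL terminal repeats and many genes of that stage, and it is encoded by an array of near-identical copies. Diced siRNA pools hold many siRNAs cut from 1 double-stranded RNA, so the sequence of the whole fragment decides which transcripts can be matched.

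The si308 fragment is shown because every siRNA of the pool was cut from it. It is 408 bases long, lies on the minus strand at chr10:58231220-58231627 (GRCm38), inside the coding sequence of a single-exon mDux transcript of 2025 bases, and has a GC content of 56.1%. The first 300 bases of it (chr10:58231328-58231627) are printed, with the forward primer site in capitals.

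si308 fragment, first 300 bases: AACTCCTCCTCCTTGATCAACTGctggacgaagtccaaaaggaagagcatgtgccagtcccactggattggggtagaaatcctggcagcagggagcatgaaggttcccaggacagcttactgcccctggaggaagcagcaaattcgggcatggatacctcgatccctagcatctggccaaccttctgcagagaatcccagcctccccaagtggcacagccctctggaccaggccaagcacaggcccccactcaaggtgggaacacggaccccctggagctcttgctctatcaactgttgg

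The fragment was searched for in all annotated transcripts with words of 21 bases, the usual length of an siRNA. Of its 388 words, the transcripts of mDux itself held 388. The array copies held fewer: Gm10807, an unprocessed pseudogene, held 357, AW822073 held 292, Gm19459 held 72 and Gm4981 held 12. No annotated transcript outside these 5 genes of the array contained a perfect word, which says nothing about imperfect matches.

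The array was nearly silent with si308. The mDux gene is 4933403O03Rik in the files and Duxf3 in GENCODE (ENSMUSG00000075046), and spans 58229979 to 58232675 of the minus strand of chromosome 10. Its counts were 1 and 4 in the si308 libraries, 256 and 193 in the Chaf1a siRNA libraries, 5 and 9 in the si309 libraries and 0 and 2 in the negative control libraries. Its log2 difference from Chaf1a siRNA was -6.68 (SE 0.37, adjusted p = 3.64e-12 in edgeR's quasi-likelihood test over all genes, which gave all later values of this kind). Summed over both libraries of a group, AW822073 had 2 counts with si308 and 280 with Chaf1a siRNA, a ratio of 169 with a 95% counting interval of 46.4 to 1403. Such intervals and floors cover counting error only. Gm10807 had 0 counts with si308 and 161 with Chaf1a siRNA, so it was at least 31.4-fold lower with the floor of 3 counts per library. Gm4981, which shares only 12 words with the fragment, had 2 counts with si308 against 47 with Chaf1a siRNA and a log2 difference of -4.67 (SE 0.82, adjusted p = 2.17e-04). The copies are near-identical, so how reads were shared among them is uncertain. Direct matching by the pool and a fall that follows from less DUX cannot be told apart for any copy, mDux included.

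Chaf1a itself was at 35.2 and 34.0 CPM (counts scaled to library size with TMM factors) with si308 and at 28.6 and 30.6 CPM with Chaf1a siRNA. The libraries did not overlap, and the log2 difference of 0.23 (SE 0.07, adjusted p = 0.0252) was no longer called by DESeq2, or with Chaf1a siRNA replicate 0 or either si308 library left out. Both groups stood far below the negative control mean of 139 CPM. Library totals were 30320146 and 42375685 gene counts for si308 and 33942345 and 26042851 for Chaf1a siRNA, so that 3 counts, the limit that a count of 0 allows, stood for 0.0694 to 0.112 CPM. Embryonic stem cell markers (10 tested, 2 raised, 1 lowered) summed to 5244 and 5069 CPM with si308, against 4876 and 4815 CPM with Chaf1a siRNA. Markers of other cell types were present in both groups: 7 of 10 fibroblast markers were tested (1 raised, 3 lowered, Prrx1 at 0 in both si308 libraries and Fap at 0 in both Chaf1a siRNA libraries), with sums of 443 and 488 CPM for si308 and 513 and 552 CPM for Chaf1a siRNA. All 7 primitive endoderm markers were tested, 4 were lowered and 0 raised, with sums of 23.1 and 24.5 CPM with si308 against 34.6 and 32.9 CPM with Chaf1a siRNA. Of 7 trophectoderm markers 6 were tested, with 0 raised and 0 lowered. Their sums were 79.5 and 89.2 CPM with si308 and 81.5 and 80.0 CPM with Chaf1a siRNA. Over all tested genes 9.91% were raised and 12% lowered. The part of these cells in the results was not tested.

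**Figure D1:**
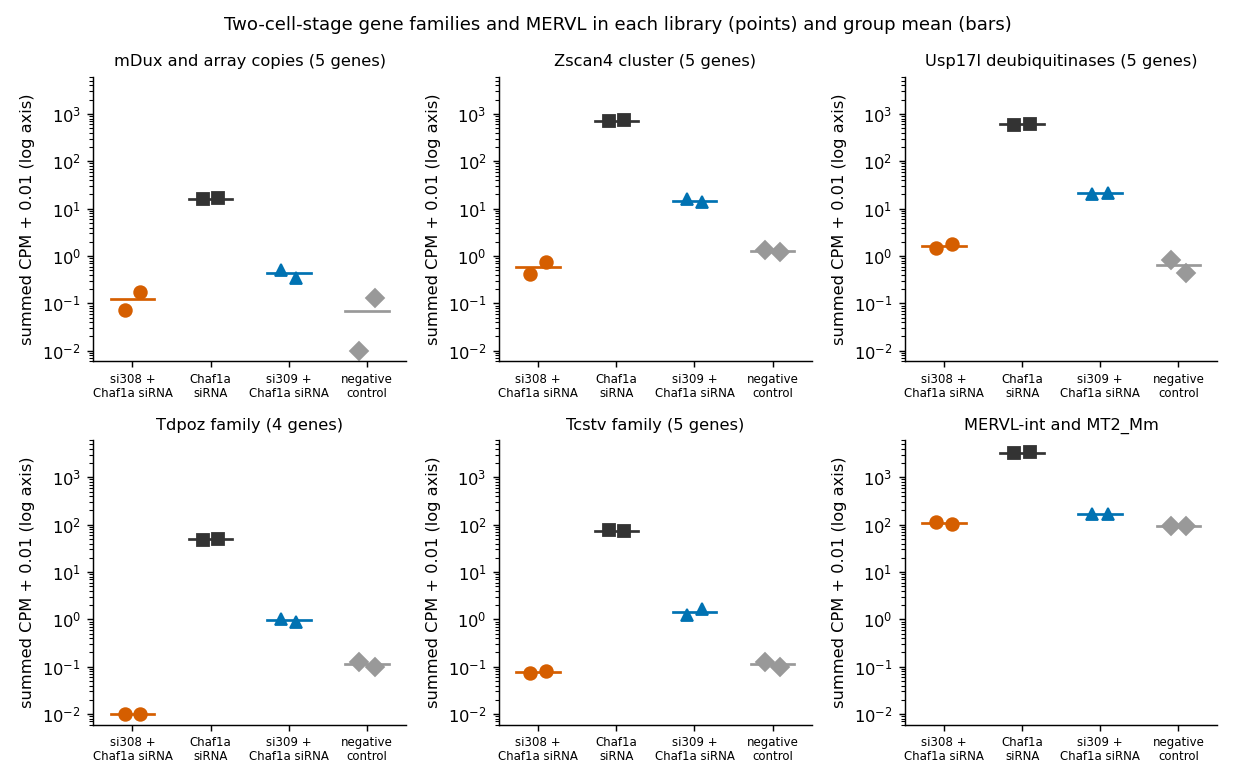
Summed CPM plus 0.01 (log axis) of the mDux array, 4 gene families of the cleavage stage and MERVL with its terminal repeat in each of the 8 libraries, shown as points, with bars at the group means; groups run si308 with Chaf1a siRNA, Chaf1a siRNA, si309 with Chaf1a siRNA and negative control. In each panel both si308 libraries lie below both Chaf1a siRNA and both si309 libraries, for example 0.416 and 0.740 CPM with si308, against 701 and 736 CPM with Chaf1a siRNA and 15.7 and 13.9 CPM with si309, for the Zscan4 cluster.

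The deepest falls were in gene families of the cleavage stage. The Zscan4 genes, zinc finger and SCAN domain genes transcribed in the 2-cell embryo, lie together on chromosome 7 between 10900740 and 11402318. Summed over its 5 tested genes (the table held 5 of 9 listed symbols), the cluster had 0.416 and 0.740 CPM with si308, 701 and 736 CPM with Chaf1a siRNA, 15.7 and 13.9 CPM with si309 and 1.33 and 1.21 CPM in the negative control. Each of the 5 genes was lowered, with log2 differences of -10.47 to -9.95, beside 12% of all tested genes lowered. In bulk RNA, fewer cells in this state and less RNA per cell cannot be told apart. All values of such families are uncertain as to the single gene, because reads of near-identical paralogs may have been split among them.

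Zscan4d (chromosome 7, 11161374 to 11166159), the most studied gene of the cluster, had 0.160 and 0.278 CPM with si308 and 255 and 273 CPM with Chaf1a siRNA (log2 difference -10.15, SE 0.13, adjusted p = 3.14e-23). With si308 it was below si309 (-4.60, SE 0.23, adjusted p = 1.64e-11) and below the negative control, whose libraries had 0.353 and 0.697 CPM (adjusted p = 0.0129). Neither si308 library overlapped either of the negative control libraries for Zscan4d. The other 4 Zscan4 genes did not pass the test against the negative control.

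The Usp17l genes encode deubiquitinases of the early embryo, and 5 of 9 listed symbols were in the table. They summed to 1.5 and 1.78 CPM with si308, 590 and 617 CPM with Chaf1a siRNA, 20.9 and 21.1 CPM with si309 and 0.824 and 0.424 CPM in the negative control. All 5 were lowered against Chaf1a siRNA, beside 12% of all tested genes. All 5 were also lower than with si309, beside 2.39% of tested genes lower in that second comparison. Usp17la (chromosome 7, 104857009 to 104862667) kept the most RNA of the family with si308, 0.864 and 0.948 CPM against 161 and 165 CPM with Chaf1a siRNA, and stayed above the 0.157 and 0.212 CPM of the negative control (adjusted p = 1.11e-05).

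Tdpoz genes, speckle-type POZ genes of preimplantation embryos, had no count in either si308 library. The 4 tested genes (of 5 in the table and 9 listed) summed to 48.4 and 50.6 CPM with Chaf1a siRNA, 1.02 and 0.887 CPM with si309 and 0.118 and 0.0909 CPM in the negative control. Tdpoz4 (chromosome 3, 93796398 to 93797510) was at least 342-fold lower with si308 than with Chaf1a siRNA, and Tdpoz3 at least 235-fold lower. Fitted log2 differences of genes without si308 counts depend on the prior count, so the list median was -10.33 as fitted and -5.87 with such genes at their bound. Tdpoz1 and Tdpoz2 had no negative control count either and passed the filter through their Chaf1a siRNA counts, which fixed their fall in advance.

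Tcstv genes, a cluster on chromosome 13 named from 2-cell transcripts, had 5 tested members of 6 in the table and 8 listed. Their sums were 0.064 and 0.0694 CPM with si308 and 75.9 and 74.7 CPM with Chaf1a siRNA. With si309 they were 1.21 and 1.62 CPM, and in the negative control 0.118 and 0.0909 CPM. All 5 were lowered, beside 12% of all tested genes. AF067063, without si308 or negative control counts, passed the filter through its Chaf1a siRNA counts. Obox homeobox genes fell in all 5 tested cases (7 of 8 listed were in the table), but 4 of them had no si308 count and at most 3.67 CPM with Chaf1a siRNA, and DESeq2 called only 2. Those 4 had no negative control count either. They passed the filter on low counts through their Chaf1a siRNA counts, so being tested fixed their fall in advance. Obox6, the only tested Obox gene with RNA in every group, was at 1.09 and 0.856 CPM with si308 and 2.23 and 1.64 CPM with Chaf1a siRNA (-1.03, SE 0.29, adjusted p = 0.0138). It was not called by DESeq2, nor after leaving out si308 replicate 1 or Chaf1a siRNA replicate 0. It was higher still in the negative control, at a mean of 3.57 CPM.

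Prame-like genes, which encode leucine-rich repeat proteins of germ cells and early embryos, did not move as a block. Of 11 tested genes (17 listed), 8 were lowered, beside 12% of all tested genes. Pramef6 had no si308 count and 10.4 and 10.5 CPM with Chaf1a siRNA, and Gm13109, which GENCODE names Pramef25, had 0.064 and 0 CPM with si308 against 44.0 and 46.7 CPM with Chaf1a siRNA. Pramef6 had no negative control count either and passed the filter through its Chaf1a siRNA counts. Pramel1, Pramel7 and Pramef8 differed by -1.19, -0.76 and -0.58, and Pramef8 kept 28.5 and 30.9 CPM with si308 beside 43.3 and 45.7 CPM with Chaf1a siRNA. Of the 4 tested Phf11 genes only Phf11a passed the test, at 0.032 and 0.0463 CPM with si308 and 7.45 and 8.78 CPM with Chaf1a siRNA (-7.52, SE 0.38).

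Among 25 other genes of the cleavage-like state (28 listed), 21 were lowered and 4 did not pass the test, beside 12% of all tested genes lowered. Tmem92, a membrane protein gene on chromosome 11, had 0 and 2 counts with si308 and 1356 and 1066 counts with Chaf1a siRNA, a ratio of 1462 with a counting interval of 404 to 12080. Zfp352, a zinc finger gene, had 0.064 and 0.0463 CPM with si308 and 33.4 and 33.2 CPM with Chaf1a siRNA. Nelfa, a subunit of the negative elongation factor that also marks cells on the way into the state, was far from silent: it had 68.3 and 68.8 CPM with si308, 227 and 243 CPM with Chaf1a siRNA, a mean of 68.0 CPM with si309 and a mean of 83.9 CPM in the negative control (-1.77 against Chaf1a siRNA, SE 0.05, adjusted p = 3.17e-17). Arg2, an arginase, kept 2.21 and 1.11 CPM with si308 beside 33.0 and 34.8 CPM with Chaf1a siRNA, above the negative control (0.0785 and 0.182 CPM, adjusted p = 7.91e-07). Sp110 of chromosome 1, a nuclear body gene, did the same at 0.768 and 1.13 CPM, against 111 and 109 CPM with Chaf1a siRNA and 0.196 and 0.485 CPM in the negative control (adjusted p = 1.08e-03).

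Over all genes 1782 were raised (9.91%) and 2156 lowered (12%) with si308 against Chaf1a siRNA at an adjusted p under 0.05 in edgeR's quasi-likelihood test. The 2 directions differed in size: 83 genes were raised (0.462%) and 750 lowered (4.17%) at least 2-fold, and 3 were raised (0.0167%) and 345 lowered (1.92%) at least 8-fold. Among the 2502 genes with a mean of 100 CPM or more, 432 were raised and 345 lowered, but none rose and 8 fell 2-fold. The raised count became 1094 without si308 replicate 0, and 1060 and 798 without replicates 0 and 1 of Chaf1a siRNA. DESeq2 gave 1089. The lowered count became 1432 when Chaf1a siRNA replicate 1 was dropped. The 3 genes raised 8-fold, Dear1, Gp6 and Pdxk-ps, were named after their values were seen and had few counts: 17 and 8 with si308 against 1 and 1 with Chaf1a siRNA for Dear1, 16 and 3 with si308 against 0 and 0 with Chaf1a siRNA for Gp6, and 15 and 15 with si308 against 2 and 0 with Chaf1a siRNA for Pdxk-ps.

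**Figure D2:**
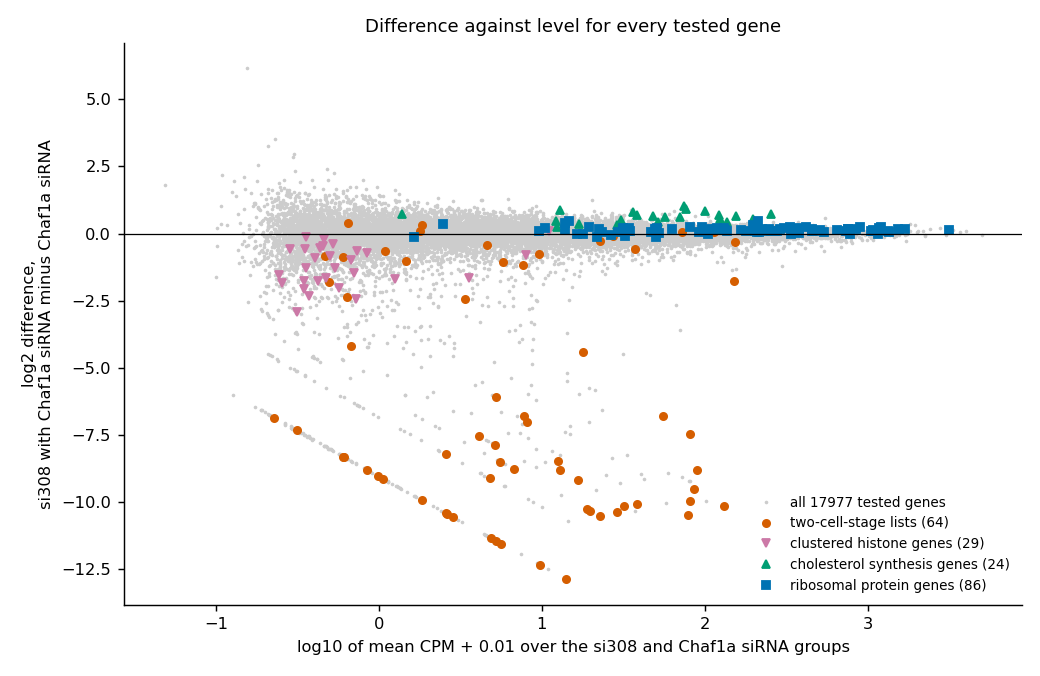
Log2 difference of si308 with Chaf1a siRNA minus Chaf1a siRNA (vertical axis) against log10 of the mean CPM of both groups plus 0.01 (horizontal axis) for the 17977 tested genes in grey, with 4 sets of lists in colour. Genes of the cleavage stage reach below -12 on the vertical axis, cholesterol synthesis genes lie above 0, and the lower slanting edge is formed by genes without si308 counts.

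The 345 genes lowered at least 8-fold summed to 48.5 and 56.2 CPM with si308, 4979 and 5130 CPM with Chaf1a siRNA, 183 and 181 CPM with si309 and 36.0 and 34.7 CPM in the negative control. Their threshold used this contrast, so these sums describe them and carry no test. Of the 345 genes, 135 had no count in both si308 libraries, 171 had names of predicted gene models, and 43 belonged to the lists of cleavage-stage families above. By annotated type, 36 unprocessed pseudogenes were among them (35.64% of those tested), beside 215 of 15299 protein-coding genes (1.41%). Genes silent outside the Chaf1a siRNA group passed the filter on low counts only through it, so they were bound to fall. The pseudogenes Gm10807 and Gm19459 are 2 such genes. The pseudogene share is therefore raised by the filter and is not a like comparison with the protein-coding share.

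Some of these genes lay in blocks. Of 328 with a position, 117 stood in 13 clusters of at least 4 such genes with gaps of no more than 500000 bases, and most stood in none. The ends of a cluster are set by the lowered genes themselves, so the counts within it are a description, and no share for tested genes in general was computed. On chromosome 7 between 14548714 and 15825815, where Obox1, Obox2 and Obox3 lie, 23 of 24 tested genes were lowered 8-fold, and on chromosome 12 between 87514316 and 90334935, around BB287469 and Oog1, 17 of 18 were. The Tcstv region of chromosome 13 (119827961 to 120318178) held 10 of 11, the Tdpoz region of chromosome 3 (93669333 to 94266784) 10 of 10, and the Sp110 region of chromosome 1 (84992690 to 85611896) 9 of 10. A Prame-like region of chromosome 4 (143551700 to 144364419) held 9 of 14, a region of the same chromosome that begins at Gm12798 (101403081 to 101981049) 5 of 12, and the mDux array on chromosome 10 held 5 of 5. At the assembled start of chromosome 9 (3000282 to 3038313) stood a further 5 of 5, led by Gm26870, which had 0.512 and 1.27 CPM with si308 and 14.0 and 14.6 CPM with Chaf1a siRNA. Neighbours in such blocks are often copies of each other and share reads, so they are not independent observations.

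Promoter windows of 300 bases from RefSeq (250 before and 50 after the start, GRCm38.p6) were searched on both strands for the letters TAAT, then 1 to 3 bases, then AATCA, a spacing variant of a double homeodomain site. Windows existed for only 153 of the 345 genes (44.3%), so the share is void as a check of the whole set. Of these 153 genes 6 (3.92%) held the letters in a window, beside 58 of 12564 tested genes with a window (0.46%). Counted by single window in place of gene, 252 of all 32851 windows did (0.77%). The facing form TGATT, 1 base, AATCA occurred in 0 of the 153 and in 11 of all windows. A match is a description of letters, not a site, and its absence here says nothing about DUX.

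Of the 6, 4 belong to the chromosome 12 block around BB287469 and hold the same 11 letters, TGATTGAATTA, so they are not independent observations. BB287469 and Gm21319 are printed, Gm21319 having been chosen after its values were seen, to show how far the copies agree around the match, which is in capitals. BB287469, an expressed-sequence gene of the eIF1A-like group, is on the plus strand (chr12:87816327-87816626), and Gm21319 on the minus strand (chr12:87775706-87776005).

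BB287469 promoter: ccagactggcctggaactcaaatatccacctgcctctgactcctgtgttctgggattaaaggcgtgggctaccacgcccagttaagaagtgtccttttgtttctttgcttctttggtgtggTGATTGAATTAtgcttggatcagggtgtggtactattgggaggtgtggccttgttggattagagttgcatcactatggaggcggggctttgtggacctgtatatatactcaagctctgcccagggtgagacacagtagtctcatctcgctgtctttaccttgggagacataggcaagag

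Gm21319 promoter: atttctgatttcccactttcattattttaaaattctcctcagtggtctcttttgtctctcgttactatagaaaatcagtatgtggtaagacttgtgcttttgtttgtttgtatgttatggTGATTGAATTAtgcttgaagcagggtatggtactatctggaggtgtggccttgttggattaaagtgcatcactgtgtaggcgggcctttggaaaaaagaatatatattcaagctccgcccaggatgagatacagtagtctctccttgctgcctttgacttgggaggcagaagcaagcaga

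BB287469 had no count in the si308 libraries and 5.36 and 4.93 CPM with Chaf1a siRNA, so it was at least 62.2-fold lower. Gm21319 had no count with si308 and 14.9 and 14.8 CPM with Chaf1a siRNA, at least 179-fold lower. With si309, both were detected, at means of 0.0824 CPM for BB287469 and 0.381 and 0.380 CPM in the 2 libraries for Gm21319. The remaining matches were Gm2046 and Gm4027 of the same block, Vmn2r52 on chromosome 7 and Cd163 on chromosome 6.

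A second pattern ran the other way and was smaller. Of 24 genes of cholesterol synthesis and its control, 20 were raised with si308 and 0 lowered, beside 9.91% raised and 12% lowered over all tested genes. The median log2 difference of the list was 0.61, beside 0.01 over all tested genes. Sterol synthesis runs from acetyl-CoA through mevalonate and squalene to cholesterol, and most of its enzymes are under the transcription factor SREBF2. Summed over the 24 genes, RNA was 2293 and 2088 CPM with si308, 1458 and 1430 CPM with Chaf1a siRNA, 1943 and 1926 CPM with si309 and 2569 and 2571 CPM in the negative control. Both si308 libraries lay above both Chaf1a siRNA and both si309 libraries and below both negative control libraries. The count of raised genes was 17 to 20 over the fits that left out 1 library, and 20 in DESeq2.

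Early steps moved with late ones. Hmgcs1, which makes HMG-CoA (chromosome 13, 119690379 to 119708260), had 327 and 308 CPM with si308 and 195 and 192 CPM with Chaf1a siRNA (0.71, SE 0.05, adjusted p = 5.11e-11). Idi1 and Fdps, which act on isoprenoid units, differed by 0.88 (SE 0.12) and 0.70 (SE 0.06).

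After squalene, Lss, the lanosterol synthase on chromosome 10, had 107 and 92.9 CPM with si308 and 53.2 and 53.1 CPM with Chaf1a siRNA (0.91, SE 0.07, adjusted p = 8.12e-10). Sc4mol, the sterol methyl oxidase now called Msmo1, had 113 and 87.9 CPM with si308 and 48.9 and 50.6 CPM with Chaf1a siRNA (1.01, SE 0.08, adjusted p = 1.99e-09), the largest log2 difference of the list. Dhcr7, the last reductase, differed by 0.82 (SE 0.09). In all these genes replicate 0 of si308 was the higher of its pair.

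Control genes of the pathway moved as well. Insig1, which holds the SREBF2 complex in the endoplasmic reticulum, had 144 and 115 CPM with si308 and 73.7 and 70.2 CPM with Chaf1a siRNA (0.84, SE 0.07, adjusted p = 1.12e-08), and Srebf2 itself had 242 and 228 CPM against 166 and 158 CPM with Chaf1a siRNA (0.54, SE 0.05, adjusted p = 3.90e-08). Against si309, 5 of the 24 were higher with si308 and 0 lower, beside 1.27% of tested genes higher; these included Insig1 (0.35, adjusted p = 6.47e-03) and Hmgcs1 (0.22). Against the negative control 2 were higher and 15 lower, beside 33.1% higher and 28.5% lower over all genes. Tm7sf2 and Ebp were among the 4 genes that did not pass the test against Chaf1a siRNA.

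**Figure D3:**
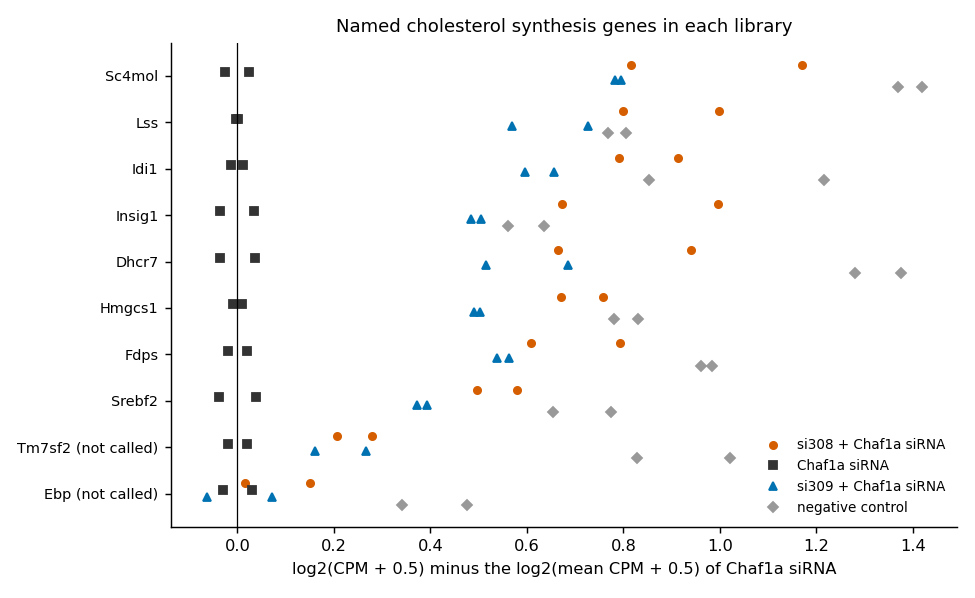
Log2(CPM + 0.5) of 10 of the 24 cholesterol genes, those named here, in each library, minus the log2 of the mean CPM plus 0.5 of the Chaf1a siRNA libraries (horizontal axis), with genes in rows and symbols for si308 with Chaf1a siRNA, Chaf1a siRNA, si309 with Chaf1a siRNA and negative control. The si308 points of the genes that passed the test lie right of the Chaf1a siRNA points, with Sc4mol at the top (1.01), and Tm7sf2 and Ebp are marked as not called.

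Glycolysis genes shared the direction at a smaller size: 15 of 23 were raised and 0 lowered, beside 9.91% raised and 12% lowered over all tested genes. Their median log2 difference was 0.24, and 0.21 to 0.29 over the fits without 1 library. Ldha, the lactate dehydrogenase on chromosome 7, had 2063 and 2017 CPM with si308 and 1642 and 1537 CPM with Chaf1a siRNA (0.36, SE 0.04, adjusted p = 1.31e-06). Aldoa, the aldolase, had 2203 and 2115 CPM against 1787 and 1715 CPM with Chaf1a siRNA (0.30, SE 0.04), and Slc16a3, a lactate transporter, 56.2 and 53.5 CPM against 41.4 and 36.2 CPM with Chaf1a siRNA (0.50, SE 0.08). None was higher with si308 than with si309 and 1 was lower, beside 1.27% higher and 2.39% lower over all tested genes.

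Ribosomal protein genes were raised in 37 of 86 tested cases and lowered in 0, with a median of 0.14, but the differences were small against the spread and the count was 10 to 28 without 1 library and 31 in DESeq2. Their sum was 36680 and 35870 CPM with si308 and 33480 and 32710 CPM with Chaf1a siRNA. Rpl7l1, a ribosomal protein-like gene of ribosome assembly, had the largest difference among those named, 246 and 247 CPM with si308 against 181 and 173 CPM with Chaf1a siRNA (0.48, SE 0.05, adjusted p = 4.95e-08). Ribosome biogenesis genes were raised in 6 of 35 cases and lowered in 0, beside 9.91% raised over all tested genes, and the raised count was 1 to 4 in the fits without 1 library (4 without si308 replicate 0, 2 without si308 replicate 1, and 1 and 2 without replicates 0 and 1 of Chaf1a siRNA).

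Outside these lists, the abundant genes with the largest rises included H1f0, a replication-independent linker histone, at 88.7 and 77.1 CPM with si308 and 47.8 and 45.2 CPM with Chaf1a siRNA (0.83, SE 0.07, adjusted p = 1.18e-08). Trim2, a ubiquitin ligase, had 67.5 and 67.5 CPM with si308 against 41.1 and 41.4 CPM with Chaf1a siRNA (0.71, SE 0.06). Krt7, a less abundant keratin of simple epithelia and trophectoderm, had 10.2 and 7.52 CPM with si308 and 3.27 and 3.96 CPM with Chaf1a siRNA (1.29, SE 0.16, adjusted p = 4.41e-06). Its lists did not share the rise: 3 trophectoderm genes were raised and 2 lowered of 19, and 3 keratin genes raised and 3 lowered of 23. Over all tested genes 9.91% were raised and 12% lowered. H1f0 and Trim2 lay above the negative control too.

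Clustered histone genes went the other way from H1f0. They encode the replication-dependent histones, whose mRNAs normally end in a stem-loop rather than a polyA tail, so little of them enters polyA libraries. Only 29 of 64 passed the filter, and 14 of these were lowered and 0 raised, 13 of them at least 2-fold, with a median of -1.27. Over all tested genes 12% were lowered, and 4.17% at least 2-fold. Their summed level was 25.2 and 27.7 CPM with si308, 43.1 and 44.8 CPM with Chaf1a siRNA, 30.0 and 30.8 CPM with si309 and 14.0 and 13.7 CPM in the negative control. Hist1h4i (chromosome 13, 22040636 to 22041362) had 1.5 and 1.85 CPM with si308 and 5.21 and 5.61 CPM with Chaf1a siRNA (-1.67, SE 0.20, adjusted p = 1.70e-06), and Hist1h1c had 5.89 and 5.76 CPM against 9.77 and 10.7 CPM with Chaf1a siRNA (-0.81, SE 0.13). The count of lowered genes was 7 to 9 without 1 library and 5 in DESeq2, while the summed level of both si308 libraries lay below both Chaf1a siRNA libraries. Slbp, which binds the histone stem-loop, was at 115 and 122 CPM with si308 and 152 and 147 CPM with Chaf1a siRNA (-0.34, SE 0.05, adjusted p = 3.99e-05).

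**Figure D4:**
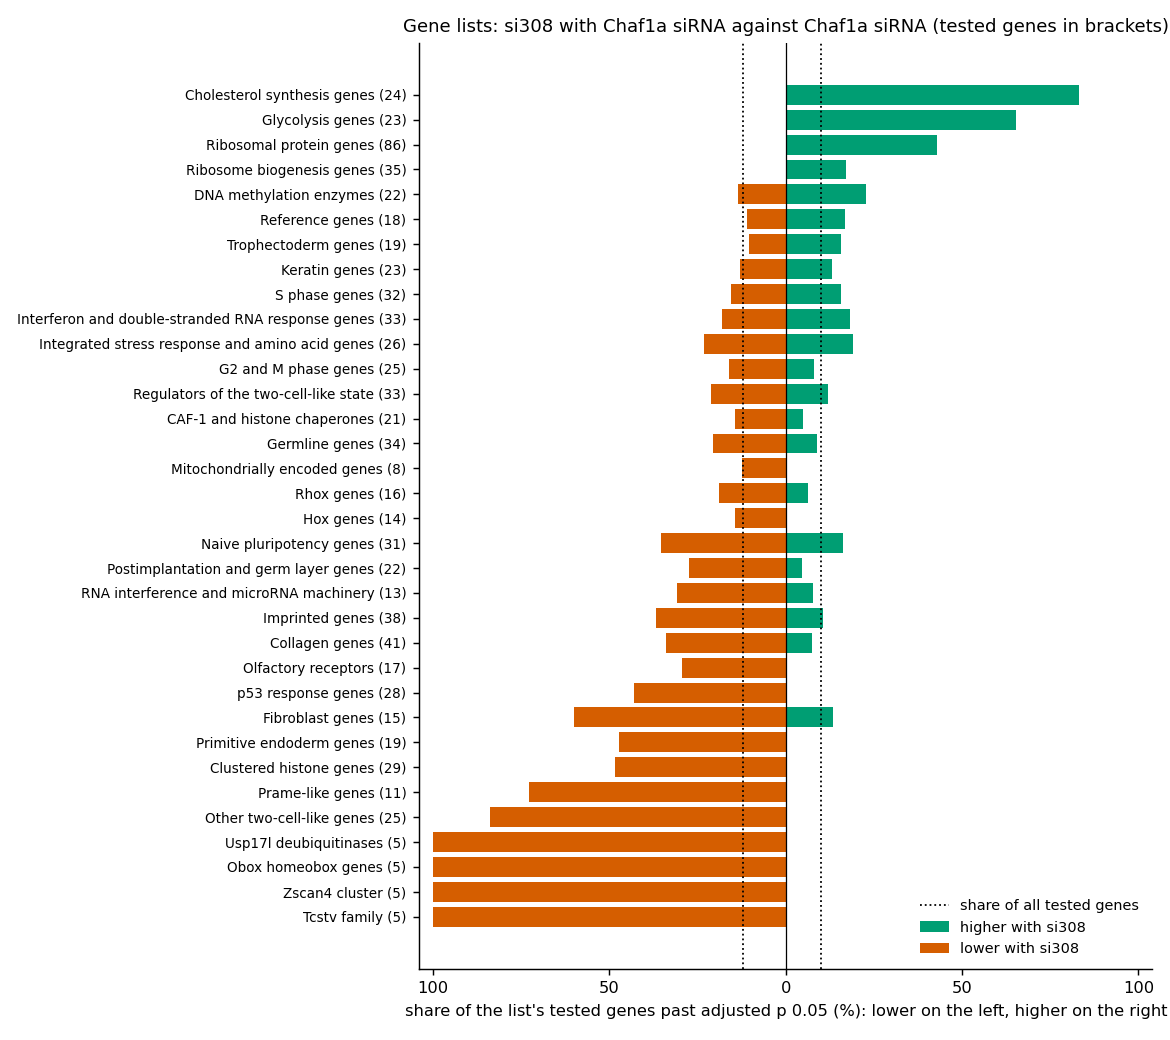
Share of each gene list's tested genes (number in brackets) that were lower (left, orange) or higher (right, green) with si308 than with Chaf1a siRNA at an adjusted p under 0.05, for lists with at least 5 tested genes; dotted lines mark the shares of all tested genes, 12% lower and 9.91% higher. Lists of the cleavage stage lie at the bottom with shares up to 100%, and cholesterol, glycolysis and ribosomal protein lists at the top.

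Imprinted genes were lowered in 14 and raised in 4 of 38 tested cases, beside 12% lowered and 9.91% raised over all tested genes; without si308 replicate 1 or Chaf1a siRNA replicate 0, 2 were raised. Magel2 had 0.192 and 0.278 CPM with si308 and 3.04 and 3.06 CPM with Chaf1a siRNA (-3.64, SE 0.35), while no count was found in the negative control libraries. Peg10, a domesticated retrotransposon gene, had 167 and 191 CPM with si308, 400 and 428 CPM with Chaf1a siRNA and a mean of 284 CPM with si309, and was also lower than with si309 (adjusted p = 6.40e-08). Of the 4 raised, Ascl2, a trophoblast transcription factor, had 2.88 and 2.54 CPM with si308 and 1.46 and 1.5 CPM with Chaf1a siRNA (0.87, SE 0.21).

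The lists of this paragraph are read beside 12% lowered and 9.91% raised over all tested genes. Responses of p53 were lowered in 12 of 28 genes and raised in none. Of the 28, 9 were also lower with si308 than with si309, beside 2.39% of all tested genes. Pmaip1, the apoptosis gene Noxa, had 27.0 and 31.3 CPM with si308 and 61.6 and 58.7 CPM with Chaf1a siRNA (-1.04, SE 0.08, adjusted p = 1.23e-09). Fibroblast genes were lowered in 9 and raised in 2 of 15 tested cases (20 listed), and the 2 raised calls were lost in each fit without 1 library, while the lowered count was 5 without si308 replicate 0 or Chaf1a siRNA replicate 1. Primitive endoderm genes were lowered in 9 of 19 and raised in none; Lrp2, an endocytic receptor, had 70.5 and 76.2 CPM with si308 and 107 and 109 CPM with Chaf1a siRNA (-0.56, SE 0.06). Collagen genes were lowered in 14 and raised in 3 of 41, with 9 lowered without Chaf1a siRNA replicate 1, and Col7a1 was lowered to 35.5 and 37.2 CPM with si308, against 49.2 and 51.2 CPM with Chaf1a siRNA.

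The next lists are likewise set beside 9.91% raised and 12% lowered over all tested genes. Interferon and double-stranded RNA response genes went both ways, with 6 raised and 6 lowered of 33 tested (18.2% each, 41 listed). The raised count was 3 without si308 replicate 0, without Chaf1a siRNA replicate 0 and in DESeq2, and the lowered count 4 to 5 without 1 library. Irf7, a transcription factor of the response, had 0.256 and 0.347 CPM with si308 and 2.01 and 1.53 CPM with Chaf1a siRNA (-2.52, SE 0.36). Ifitm1, Ifitm2 and Ifitm3, membrane proteins that stem cells also make without interferon, were higher, by 0.64, 0.35 and 0.34. Ifitm1 had 133 and 124 CPM with si308, 81.2 and 83.8 CPM with Chaf1a siRNA, 92.3 and 100 CPM with si309 and 180 and 196 CPM in the negative control. The RNA interference machinery was lowered in 4 and raised in 1 of 13 genes, with log2 differences between -0.32 and 0.22 over the list, and 2 were lowered without si308 replicate 1 or Chaf1a siRNA replicate 1.

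Pluripotency genes went both ways too. Of 31 naive genes 11 were lowered (35.5%) and 5 raised (16.1%), beside 12% and 9.91% over all tested genes. The median log2 difference of these 31 genes was -0.03, beside 0.01 over all tested genes. Pou5f1, the core factor Oct4, had 683 and 717 CPM with si308 and 627 and 636 CPM with Chaf1a siRNA (0.15, SE 0.04, adjusted p = 0.0118). Tcl1 had 62.0 and 57.7 CPM with si308, 44.9 and 43.9 CPM with Chaf1a siRNA, 42.8 and 45.1 CPM with si309 and 126 and 122 CPM in the negative control, so the si308 libraries were above si309 (0.44, adjusted p = 9.17e-05). Lower genes included Fbxo15 (-0.66, SE 0.05) and Klf4 (-0.36, SE 0.05). Among 33 tested regulators of the cleavage-like state 7 were lowered (21.2%) and 4 raised (12.1%), beside 12% and 9.91% over all tested genes, and the raised count was 2 in DESeq2 and without si308 replicate 0 and 1 without either Chaf1a siRNA library. Zfp809, a repressor of retroviral DNA, had 41.5 and 42.4 CPM with si308 against 62.3 and 64.7 CPM with Chaf1a siRNA (-0.60, SE 0.07), and Lin28a, an RNA-binding protein, 79.0 and 92.3 CPM against 57.0 and 59.0 CPM with Chaf1a siRNA (0.57, SE 0.07).

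The remaining lists are given by their counts, raised before lowered, beside 9.91% raised and 12% lowered over all tested genes. S phase genes had 5 raised and 5 lowered of 32, G2 and M phase genes 2 and 4 of 25, histone chaperones 1 and 3 of 21, stress response genes 5 and 6 of 26, germline genes 3 and 7 of 34, DNA methylation enzymes 5 and 3 of 22, trophectoderm genes 3 and 2 of 19 and reference genes 3 and 2 of 18. Postimplantation genes had 1 and 6 of 22 (27.3% lowered), but 3 to 4 were lowered in the fits without 1 library, and the lowered germline genes (20.6%) numbered 4 to 8 in those fits. Hox genes had 0 and 2 of 14, Rhox genes 1 and 3 of 16, keratin genes 3 and 3 of 23, protocadherins 0 and 1 of 3 and mitochondrially encoded genes 0 and 1 of 8. Of 17 tested olfactory receptors 5 were lowered (29.4%; 5 to 7 without 1 library) and 0 raised, and Olfr376 was lowered, without si308 counts, against 2.06 and 1.83 CPM with Chaf1a siRNA; 225 of the 242 in the table did not pass the filter.

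Repeat RNA was compared with the same library factors. MERVL-int, the coding part of the retrovirus whose terminal repeat drives many cleavage-stage transcripts, had 76.0 and 71.2 CPM with si308, 2600 and 2754 CPM with Chaf1a siRNA, a mean of 121 CPM with si309 and a mean of 59.5 CPM in the negative control (-5.19 against Chaf1a siRNA, SE 0.08). It made up 0.102% and 0.104% of repeat counts with si308, against 3.16% and 3.23% with Chaf1a siRNA. MERVL-int with si308 differed from the negative control by 0.31 (adjusted p = 1.13e-03, beside 10.9% of repeats higher and 3.75% lower in that comparison) and from si309 by -0.72 (adjusted p = 9.95e-19). MT2_Mm, its terminal repeat, had 37.7 and 33.9 CPM with si308 and 634 and 661 CPM with Chaf1a siRNA (-4.18, SE 0.08) and did not pass the test against the negative control (0.08, adjusted p = 0.584).

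Of 1253 repeats tested, 6 were raised (0.479%) and 312 lowered (24.9%), with 48 lowered at least 2-fold (3.83%). This balance depends on the scaling: with library sizes from the repeat table itself, 108 were raised and 217 lowered, and the median over repeats was 0.02 in place of -0.14. It also depends on a library, with 507 lowered without si308 replicate 0 and 17 raised without si308 replicate 1. Repeat counts per 100 gene counts were 7.70 in si308 replicate 0 and 6.95 in replicate 1, against 8.46 and 8.75 with Chaf1a siRNA; without MERVL-int and MT2_Mm they were 7.69 and 6.94 with si308 and 8.12 and 8.40 with Chaf1a siRNA. Repeat p-values rest on a spread shared over all repeats, so small differences are less certain than their p-values say.

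Apart from MERVL-int and MT2_Mm, 8 of the repeats named by rule fell by more than 2 on the log2 scale. HY1, a small RNA repeat of few reads, had 3 and 0 counts with si308 and 33 and 31 counts with Chaf1a siRNA, a ratio of Chaf1a siRNA over si308 of 25.8 with a counting interval of 8.43 to 128.2. ORR1A3-int, an internal part of a MaLR element, had 47.0 and 41.5 CPM with si308 and 244 and 253 CPM with Chaf1a siRNA (-2.49, SE 0.08), beside means of 45.7 CPM with si309 and 40.2 CPM in the negative control. RLTR6B_Mm, the terminal repeat of a retrovirus of the ERV1 class, had 10.2 and 9.72 CPM with si308 and 60.0 and 63.2 CPM with Chaf1a siRNA (-2.63, SE 0.10), and MER89 had 3.84 and 3.77 CPM against 26.0 and 26.7 CPM with Chaf1a siRNA (-2.79, SE 0.12). X7C_LINE, a LINE of the CR1 family, had 1.73 and 1.48 CPM with si308 and 9.14 and 8.07 CPM with Chaf1a siRNA (-2.44, SE 0.16). RLTR30C_MM and LTR86A1 differed by -2.23 and -2.21, and GSAT_MM is described with the satellites. MT2B1, a relative of the MERVL terminal repeat, had 105 and 89.5 CPM against 215 and 222 CPM with Chaf1a siRNA (-1.17, SE 0.08).

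GSAT_MM, the major satellite of pericentromeres, had 0.864 and 1.30 CPM with si308, 10.8 and 8.78 CPM with Chaf1a siRNA and means of 0.749 CPM with si309 and 0.289 CPM in the negative control. Its difference from Chaf1a siRNA was -3.15 (SE 0.17, adjusted p = 1.95e-71), and it stayed above the negative control (adjusted p = 1.95e-06). The other tested satellites, SYNREP_MM and MMSAT4, did not pass the test.

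The lists of repeat families are read against 24.9% lowered over all tested repeats. All 6 L1Md subfamilies, the young L1 retrotransposons, were lowered (median -0.53), with L1Md_F2 at 838 and 774 CPM with si308 and 1182 and 1221 CPM with Chaf1a siRNA (-0.58, SE 0.07); 5 of the 6 were still lowered with repeat-table library sizes (median -0.36). IAP elements were lowered in 17 of 25 cases (median -0.45), or 13 with repeat-table sizes. VL30 and MuLV elements were lowered in 17 of 33 (51.5%), other MT2 elements in 5 of 6, ORR1 elements in 13 of 28 (46.4%), MT elements in 7 of 15 (46.7%) and RLTR elements in 70 of 181 (38.7%). With repeat-table sizes these were 13, 5, 9, 4 and 53. Most names in the VL30 and MuLV list run from RLTR40 to RLTR49, so its share does not stand for VL30 and MuLV alone. Its RLTR names are also counted among the RLTR elements. The shares of MLT1 elements (10 of 45, 22.2%), ETn and MusD elements (3 of 10, 30%) and older L1 elements (18 of 74, 24.3%) lay near that of all repeats, and with repeat-table sizes 7, 3 and 10 were lowered and 1, 4 and 10 raised, with medians of 0.02, 0 and 0.09. Without si308 replicate 0, 26 of 28 ORR1, 13 of 15 MT, 19 of 45 MLT1 and 38 of 74 older L1 elements were lowered. Without Chaf1a siRNA replicate 1, 2 MT, 6 MLT1 and 9 older L1 elements were. The list of 27 B1 and B2 elements also holds B4 and ID elements. Of the 27, 4 were lowered and 0 raised, but 2 were lowered and 22 raised with repeat-table library sizes. No direction therefore holds for that list. By annotated family and with the main scaling, 3 of 5 B2 elements were lowered, against 1 of 16 Alu, 0 of 4 B4 and 0 of 4 ID elements. B2_Mm1a, a young B2 element, had 1622 and 1748 CPM with si308 and 2154 and 2322 CPM with Chaf1a siRNA (-0.41, SE 0.07), well above the mean of 577 CPM in the negative control.

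**Figure D5:**
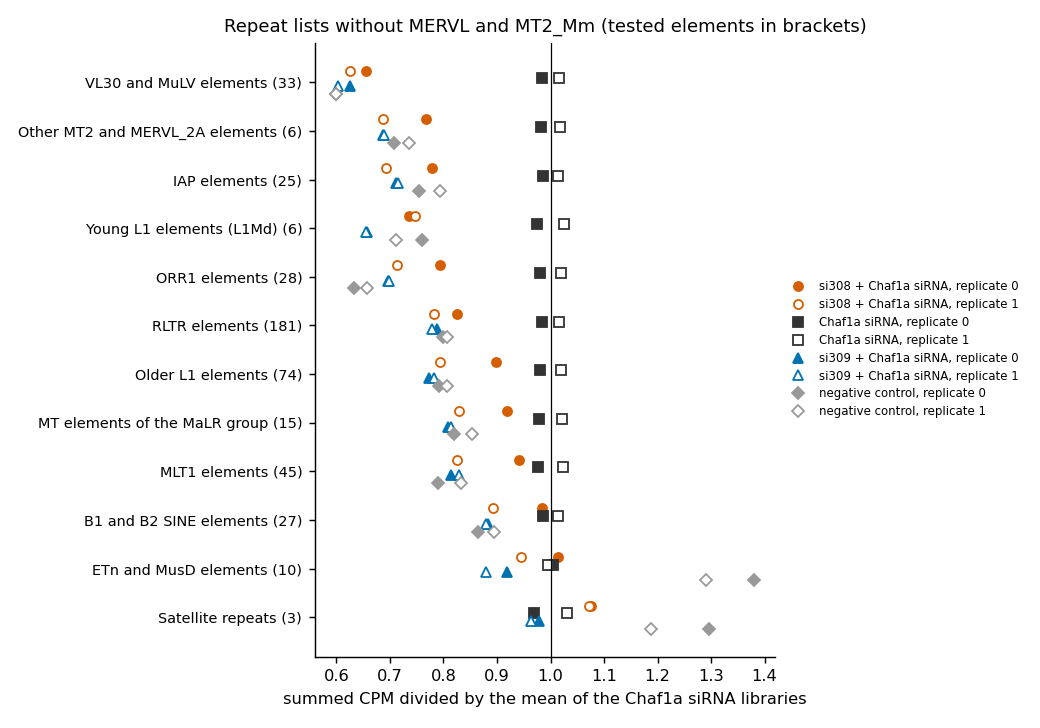
Summed CPM of 12 repeat lists in each library divided by the mean of the Chaf1a siRNA libraries (horizontal axis), with lists in rows (tested elements in brackets), filled symbols for replicate 0 and open symbols for replicate 1. In most lists si308 replicate 0 lies nearer to the Chaf1a siRNA libraries than replicate 1, for example in the MLT1 and older L1 elements.

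The pools themselves were compared to see where si308 and si309 differ beside the same Chaf1a siRNA. Of the genes tested, 228 were higher (1.27%) and 430 lower (2.39%) with si308, and 9 higher (0.0501%) and 115 lower (0.64%) at least 2-fold. These counts were 47 higher without si309 replicate 1 and 164 lower without the same library, and 55 and 185 without si309 replicate 0. The lower genes named by rule were Zscan4c, Zscan4d, Zscan4e, Zscan4f, Usp17lb and Usp17lc, with log2 differences of -3.98 to -5.02. The higher genes named by rule, those of the largest differences, were low: Spink10, a protease inhibitor gene, had 11.6 and 10.6 CPM with si308, 6.27 and 6.02 CPM with Chaf1a siRNA, 4.57 and 5.55 CPM with si309 and a mean of 0.984 CPM in the negative control (1.12 against si309, SE 0.13, adjusted p = 1.83e-05). Among repeats, 0 were higher (0%) and 2 lower (0.16%) by edgeR, MERVL-int and MT2_Mm, although 113 were higher and 10 lower at an unadjusted p under 0.05. Without si308 replicate 1 the count of higher repeats was 290, and without si308 replicate 0 it was 4; DESeq2 called 0 higher.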

How the data were processed

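RNA of 8 mouse embryonic stem cell libraries (TruSeq Stranded mRNA, paired reads) was deposited as counts per gene and per repeat name, made by the authors with Novoalign 2.8 on mm10, per the submitters' processing notes; the counting tool and annotation are not given in the sources used here. The deposited tables also hold the authors' log2 fold changes and adjusted p-values against the negative control, which are not used here, nor are 16 further per-sample columns. Column names give each library's group but not which replicate label it belongs to, so replicates 0 and 1 are numbers of columns.

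Counts were scaled with TMM factors and tested with edgeR 4.0.16 (R 4.3.3; quasi-likelihood test, filterByExpr, Benjamini-Hochberg adjustment, called at an adjusted p under 0.05) over all 8 libraries. The members and gene lists were chosen with earlier results of these data known. Genes named are Chaf1a, the mDux array, the largest called changes (up to 12 in each direction at 1 CPM or more, up to 10 at 50 CPM or more), up to 5 genes per list by p, up to 6 in each direction against si309, MERVL-int, MT2_Mm, and up to 10 lowered and 6 raised repeats and 3 per repeat list. Arg2, Pramel7, Slc16a3, Pou5f1, Tcl1, Gm26870, Oog1, the 8-fold raised genes, the promoter matches other than BB287469, and Idi1, Dhcr7, Srebf2, Tm7sf2 and Ebp were chosen after their values were seen. Some genes that the rule names are not reported here. Alternatives were DESeq2 1.42.0, other scalings and filters, a replicate block and leaving out each library. The scripts were tested on simulated data. Sequences are from GENCODE transcripts (GRCm38) and RefSeq promoters (GRCm38.p6).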

Additional observations from a re-analysis of the deposited data

Results flagged for a closer look

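The difference between the pools was tested gene by gene beside the same Chaf1a siRNA, and the 12 genes named by rule are given here because the si308 and si309 effects differed in that test. Zscan4f was at 0 and 0.185 CPM with si308 and 3.81 and 3.42 CPM with si309 (log2 difference -5.02). Zscan4d differed by -4.60, Zscan4c by -4.51 and Zscan4e by -3.98. Usp17lc differed by -4.86 and Usp17lb, at 0.256 and 0.208 CPM with si308 and 5.62 and 6.49 CPM with si309, by -4.71. These 6 genes belong to families that may share reads, so they are not 6 independent observations.

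The named genes that were higher with si308 were low in all groups. Spink10 differed by 1.12 and Myb, at 4.45 and 4.09 CPM with si308 and 2.41 and 1.60 CPM with si309, by 1.11; Myb was not called without si309 replicate 1 (adjusted p = 0.106 in edgeR). Gmnc differed by 1.62, Asb9 by 1.62, Lnx1 by 1.23 and Chrna9 by 1.10, and each of these 4 was lost in at least 2 of the fits that left out 1 library. Chrna9 was also lost with the replicate block (adjusted p = 0.0591 in edgeR). The cause of these differences was not tested.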

How the results depend on the processing

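Of the 188 named genes and 43 named repeats called against Chaf1a siRNA, none changed direction in any alternative run that tested it. Named genes and repeats that were not called did not enter this check. Of the 188 genes, DESeq2 lost 24 calls, and leaving out 1 library lost 22 to 36. DESeq2 called 1089 raised genes, and TMM factors after the filter, an alternative chosen after seeing the data, 1603 raised and 2321 lowered. Without 1 library, raised genes numbered 798 to 1294 and lowered genes 1432 to 1878. Against si309 they were 47 to 136 and 164 to 307, and 373 higher without a filter on low counts. Against the negative control, library totals gave 3275 lowered genes, with the median over all genes at 0.20 in place of 0.03.

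Raised repeats numbered 3 to 17 and lowered repeats 215 to 507 without 1 library. DESeq2 called 0 raised repeats, and repeat-table library sizes gave 108 raised. Against si309, 0 to 290 repeats were higher and 1 to 7 lower without 1 library, with 1 lower when only the libraries compared entered the fit and 8 with repeat-table sizes. Against the negative control the ranges were 70 to 232 higher and 31 to 119 lower, library totals gave 420 and 26, DESeq2 84 higher and repeat-table sizes 117 lower. The share of genes with the motif in a promoter window was 1.45% at a 2-fold threshold (6 of 413) and 4.92% at a 16-fold threshold (6 of 122). At 8-fold it was 3.92% (6 of 153), so only the number of genes with a window changed. The cause of the other shifts was not tested, beyond fewer samples in the fits without 1 library.

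A replicate block, pairing columns by number, changed no named call against Chaf1a siRNA and lost 1 of 12 against si309, with 1817 genes raised and 2179 lowered and 291 repeats lowered. Same-numbered columns correlated at -0.10 to 0.12 in their deviations, and the labels tie no number to a shared culture. Depth limits the lowest genes: under a mean of 1 CPM, all 56 raised genes differed at least 1.5-fold, against 5 of the 432 raised at 100 CPM or more.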
